A study of Mus musculus with 16 samples.

Results

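The 10 genes described here are markers of Kupffer cells, the resident macrophages of the liver, and of macrophages at large: Clec4f, Timd4, Cd5l, Adgre1, Csf1r, Marco, Vsig4, Aif1, Cd68 and Spi1. They were taken by name, and all 10 were found among the 21887 protein-coding genes of the mouse annotation. For each gene the readout was the length of its window, the gene and 5000 bp beyond each end on build mm10, that lay inside called regions of H3K4me2 or of H3K27ac. In KO livers both Arid1a alleles were floxed and the Alb-cre transgene was present (Arid1a Fl/Fl; Alb-cre). In WT livers the same floxed alleles were present without Cre (Arid1a Fl/Fl). Both groups were mice of a mixed C57/B6 and 129 strain at postnatal day 90, and all had undergone partial hepatectomy 40 h before collection. The Alb promoter drives Cre in cells of the hepatocyte lineage, so Kupffer cells are not expected by design to recombine Arid1a. Each histone mark had 1 library per genotype and the transcription factor E2f4 had 2, so no difference in a mark below has a replicate check or a test.

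Kupffer cells line the liver sinusoids, where they take up bacteria, ageing erythrocytes and apoptotic cells from portal blood. Their identity depends on the myeloid factor PU.1, encoded by Spi1, on signalling through Csf1r and on factors such as LXRα induced by the liver niche. H3K4me2 marks promoters and enhancers, whether active or poised, and H3K27ac marks those that are active. Arid1a belongs to the SWI/SNF remodeller, which moves nucleosomes and opens such elements. The labels' protocols describe frozen liver that was fixed, dounced and used for hepatocyte isolation before immunoprecipitation. Bulk chromatin of that kind cannot tell fewer macrophages apart from less mark in each macrophage.

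The material held marks at the genes of more cell types than hepatocytes. Each of 18 hepatocyte genes carried both marks in at least 1 genotype. All 10 members had H3K4me2 and H3K27ac somewhere in their windows in KO livers, against 8 members with H3K4me2 and 9 with H3K27ac in WT livers. Over all genes H3K4me2 lay in 77% of windows in KO livers and 76% in WT livers, and H3K27ac in 66.9% in KO livers and 67.5% in WT livers. The lists of a mark also differed in size between the genotypes over the whole genome. H3K4me2 regions covered 111.6 Mb in KO livers, against 104 Mb in WT livers, so the KO length was 107.3% of the WT length. H3K27ac regions covered 103.7 Mb in KO livers, against 112.6 Mb in WT livers, which put KO at 92.12% of WT.

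Of the 10 genes, 7 had a single start site in the RefSeq promoter table, and the 250 bases before it were read for them: Clec4f, Timd4, Cd5l, Marco, Vsig4, Aif1 and Cd68. Adgre1, Csf1r and Spi1 had none there. These 7 upstream sequences were poor in CpG, with a median observed over expected CpG of 0.0845 (range 0 to 0.27) against 0.53 over 21263 promoters of protein-coding genes. Their median GC content was 47.6% (43.2% to 57.2%), against 55.6% over all those promoters. The ETS core GGAAGT, the short element that PU.1 and its relatives bind, was found on either strand in 3 of the 7, in Clec4f, Timd4 and Vsig4, and in 20.4% of all promoters. The longer PU.1 element GAGGAAGT, which contains that core, was found in 0 of the 7 and in 2.23% of all. The AP-1 element TGANTCA was found in 1 of the 7, Cd68, which held it in 2 places, and in 6.13% of all. The C/EBP element TTGCNCAA, TATAAA and the E2F element GGCGGGAA were found in 0 of the 7, and in 2.56%, 11.6% and 2.47% of all promoters.

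The 4 upstream sequences with a match are shown because the regions called at their start sites are described below. They are from RefSeq on GRCm38.p6, written 5′ to 3′ toward the gene in lower case, and capitals mark GGAAGT in Clec4f, Timd4 and Vsig4 and TGAGTCA in Cd68. Clec4f is chr6:83656117-83656366 on the minus strand, Timd4 is chr11:46810549-46810798 on the plus strand, Vsig4 is chrX:96293439-96293688 on the minus strand and Cd68 is chr11:69666171-69666420 on the minus strand.
Clec4f: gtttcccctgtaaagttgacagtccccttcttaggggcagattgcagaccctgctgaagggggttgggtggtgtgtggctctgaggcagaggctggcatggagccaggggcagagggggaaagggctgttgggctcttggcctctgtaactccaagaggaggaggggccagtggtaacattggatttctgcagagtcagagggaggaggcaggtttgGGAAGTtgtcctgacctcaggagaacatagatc
Timd4: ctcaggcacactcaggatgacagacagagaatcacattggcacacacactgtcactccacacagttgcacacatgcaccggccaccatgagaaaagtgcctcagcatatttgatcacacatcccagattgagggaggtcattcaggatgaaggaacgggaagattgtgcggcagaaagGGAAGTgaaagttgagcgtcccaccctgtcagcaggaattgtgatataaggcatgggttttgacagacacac
Vsig4: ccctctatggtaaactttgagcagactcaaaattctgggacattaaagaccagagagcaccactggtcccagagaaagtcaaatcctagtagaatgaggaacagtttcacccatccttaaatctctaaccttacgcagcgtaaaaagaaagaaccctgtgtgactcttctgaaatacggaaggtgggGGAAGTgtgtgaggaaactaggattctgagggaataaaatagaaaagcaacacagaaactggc
Cd68: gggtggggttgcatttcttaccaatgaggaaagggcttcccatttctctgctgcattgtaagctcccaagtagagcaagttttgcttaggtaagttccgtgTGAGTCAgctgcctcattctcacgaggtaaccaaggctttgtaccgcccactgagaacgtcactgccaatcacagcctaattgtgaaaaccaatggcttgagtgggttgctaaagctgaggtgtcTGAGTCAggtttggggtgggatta
Counting back from the start site in bases, the match began at -33 in Clec4f, -72 in Timd4 and -63 in Vsig4, and at -149 and -24 in Cd68. A match is a string of letters and does not show that a factor was bound. H3K27ac regions covered all 250 bases of 1 of these 4 sequences in KO livers, that of Clec4f, and of all 4 in WT livers. H3K4me2 covered the sequence of Timd4 in KO livers and none of the 4 in WT livers. The sequences without a match, of Cd5l, Marco and Aif1, had 0 bp of either mark in both genotypes. A like share over all promoters is not given here, and a link between the matches and the marks was not tested.

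Covered length stayed within 1.5-fold between the genotypes at 6 of the 10 genes for H3K4me2 and at 8 for H3K27ac. H3K4me2 was shorter in KO livers at Cd5l and Adgre1, and was listed at Timd4 and Marco in KO livers only. H3K27ac was shorter in KO livers at Vsig4, and was listed at Marco in KO livers only. Summed over the 10 genes, H3K4me2 covered 43603 bp in KO livers, against 40752 bp in WT livers, so the KO sum was 107% of the WT sum. The H3K27ac sum was 58159 bp in KO livers, against 63923 bp in WT livers, and KO was at 90.98% of WT. Both sums stood close to the genome-wide figures of 107.3% and 92.12%.

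**Figure D1:**
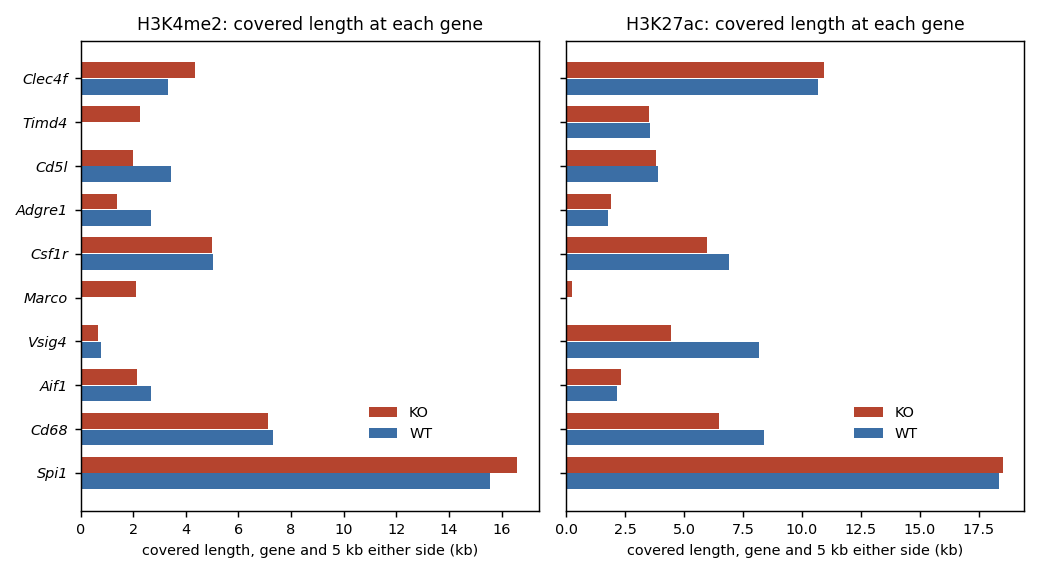
Covered length of H3K4me2 (left) and H3K27ac (right) in kb over each gene and 5 kb either side, with 1 bar for the KO library and 1 for the WT library of each mark. Bars carry no error because each mark had 1 library per genotype. Spi1 has the longest bars in both panels, Timd4 and Marco have no WT bar for H3K4me2, and the widest gap between bars is the one at Vsig4 for H3K27ac.

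Counted over the 10 genes, H3K4me2 was shorter in KO livers at 6 and longer at 4, with a median difference of -52.5 bp (KO minus WT). Of 17099 protein-coding genes with H3K4me2 in their window in either genotype, 38% were shorter in KO livers and 61.9% longer, with a median of 229 bp. A gene was called at a 1.5-fold difference in length, which includes genes listed at 0 in 1 genotype. By that rule 2 members were shorter in KO livers (Cd5l and Adgre1) and 2 longer (Timd4 and Marco), against 6.8% and 13.4% of the 17099 genes. Among the 9848 genes with a mean covered length of 1 to 5000 bp, where most of the 10 genes lie, the shares were 9.73% shorter and 18.8% longer. The 1.5-fold counts thus differed from these shares by less than 2 genes in either direction, and none of the 4 calls was left when only regions with a −log10 q-value of 5 or more were used.

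For H3K27ac, 5 members were shorter in KO livers and 5 longer, with a median difference of 22 bp. Over 15219 genes with H3K27ac in either genotype, 52.2% were shorter in KO livers and 47.7% longer, with a median of -54 bp. The 1.5-fold rule called 1 member shorter in KO livers (Vsig4) and 1 longer (Marco), against 18.5% and 14.2% of the 15219 genes. In the 8999 genes with a mean of 1 to 5000 bp the shares were 22.6% and 19.8%. The H3K27ac counts of the 10 genes were near these shares and say nothing particular about them. With KO lengths scaled to the WT genome-wide length, the difference turned to -93.3 bp for H3K4me2 at Spi1, and to 255 bp at Timd4 and 232 bp at Cd5l for H3K27ac.

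The position of the regions varied more than their summed length. For H3K4me2, the bases covered in both genotypes made up a median of 41.6% of those covered in either, over the 8 members marked in both (range 0% to 93.78%), against 70.39% over 16383 genes. The H3K27ac median was 64.94% over 9 members (26.88% to 92.02%), against 61.88% over 14192 genes. Equal lengths could therefore hide regions that were called in different places, as for H3K4me2 at Vsig4 and H3K27ac at Cd5l. The H3K4me2 regions of these genes were weaker than the whole lists, with median −log10 q-values of 2.037 in KO livers and 2.444 in WT livers. The medians of the lists were 2.896 and 3.308. The shared part over genes with regions of like strength is not given here.

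**Figure D2:**
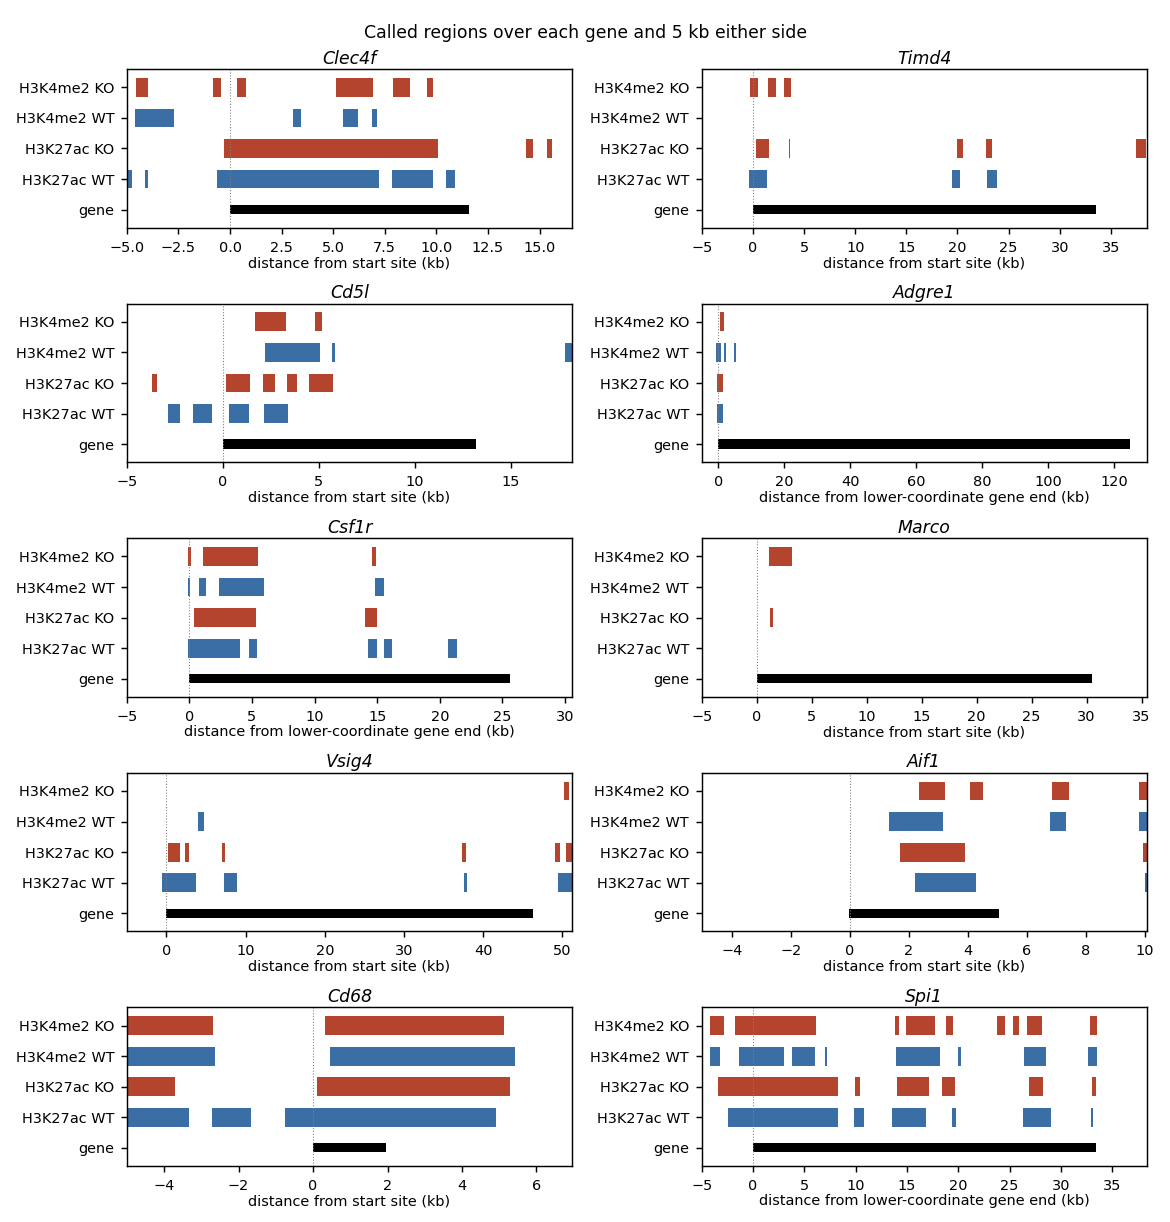
Regions called over each of the 10 genes, with 1 track per mark and genotype (KO above WT) and the gene as a black bar. The horizontal axis is distance in kb from the start site, or from the lower-coordinate gene end for Adgre1, Csf1r and Spi1. The wide H3K27ac regions at Clec4f and Spi1 appear in both genotypes, whereas Timd4 and Marco have H3K4me2 tracks filled in KO only.

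Among the surface receptors that let Kupffer cells capture particles, Clec4f, a galactose-binding C-type lectin that in mice marks Kupffer cells almost exclusively, carried the widest H3K27ac of the group outside Spi1. The gene lies on chromosome 6, from 83644542 to 83656116. H3K27ac covered 10952 bp of its window in KO livers (50.76%), against 10672 bp in WT livers (49.46%). In KO livers 1 region of 10382 bp ran from -302 to 10079 bp relative to the start site. The WT region was 7855 bp long and ran from -638 to 7216 bp, followed by a separate piece of 1940 bp. By width these regions ranked 951 of 54652 in KO livers and 1634 of 63321 in WT livers, the top 1.74% and 2.58% of each list. Their strength was moderate, with a fold enrichment of 4.22 in KO livers and 4.691 in WT livers, as given by the authors for each region. H3K4me2 at Clec4f was patchy, at 4330 bp in 6 pieces in KO livers, against 3327 bp in 4 pieces in WT livers, of which 21.89% was shared. Within the gene alone H3K4me2 was 3338 bp in KO livers, against 1427 bp in WT livers, and there the difference passed 1.5-fold. The longest WT piece, of 1900 bp, lay upstream of the gene.

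Timd4 encodes TIM-4, a phosphatidylserine receptor with which resident macrophages recognise apoptotic cells. The gene lies on chromosome 11, from 46810786 to 46844333. H3K27ac at Timd4 was of nearly equal length in the genotypes, at 3514 bp in KO livers and 3559 bp in WT livers, but only 35.45% of it was shared. At the start site the KO region of 1292 bp began at 319 bp, whereas the WT region of 1807 bp began at -383 bp, and only the WT region held the upstream sequence shown above. A pair of further H3K27ac regions, near 20 and 23 kb into the gene, was called in both genotypes. H3K4me2 was listed in KO livers only, in 3 regions of 776, 796 and 684 bp, the first across the start site and the others inside the gene. These were weak, with −log10 q-values of 1.113, 1.75 and 1.394 against a median of 2.896 over the KO list, and none reached 5.

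Marco, a class A scavenger receptor that binds bacteria and unopsonised particles, had the fewest marked bases of the 10 genes. It lies on chromosome 1, from 120474538 to 120505024. Both of its marks were listed in KO livers only. H3K4me2 covered 2092 bp in 1 region in KO livers, against 0 bp in WT livers, from 1152 to 3243 bp after the start site. H3K27ac covered 260 bp inside that region in KO livers, against 0 bp in WT livers. Both regions were weak, with −log10 q-values of 1.46 for H3K4me2 and 1.587 for H3K27ac, at rank 65264 of 73042 and rank 43179 of 54652 in their lists.

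Vsig4 encodes CRIg, a complement receptor that binds C3b on circulating bacteria. The gene lies on chromosome X, from 96247201 to 96293438, and had the greatest difference in H3K27ac of the 10. H3K27ac covered 4429 bp in KO livers, against 8189 bp in WT livers, a KO over WT ratio of 0.5408. Near the start site the KO library had a piece of 1495 bp from 164 to 1658 bp and another of 513 bp, whereas the WT region of 4291 bp spanned -535 to 3755 bp. None of these was strong, with −log10 q-values of 2.605 and 2.716 for the KO pieces and 2.309 for the WT region. The 1.5-fold call ended with windows of 10000 bp, with lists of equal length, with regions under 1000 bp apart joined and with regions of a −log10 q-value of 5 or more. H3K4me2 was nearly equal in length, at 665 bp in KO livers and 763 bp in WT livers, yet shared no base. The KO region lay 50240 to 50904 bp after the start site, beyond the far end of the gene and over Mir223, the gene of a microRNA abundant in myeloid cells, and the long noncoding RNA gene F630028O10Rik. The WT region lay 4021 to 4783 bp after the start site, inside the gene. A broad H3K27ac region that crossed the window edge beside Mir223 was called in both genotypes, 4273 bp long in KO livers and 5042 bp in WT livers.

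Cd5l, also called AIM, is a secreted scavenger receptor-like protein made by tissue macrophages. It lies on chromosome 3, from 87357881 to 87371074. H3K4me2 covered 1985 bp in KO livers, against 3422 bp in WT livers, a ratio of 0.5801. In KO livers a region of 1596 bp lay 1677 to 3272 bp after the start site. In WT livers a region of 2899 bp lay 2178 to 5076 bp after it, so that 34.87% of the H3K4me2 was shared. H3K27ac was nearly equal in length, at 3810 bp in KO livers and 3904 bp in WT livers, with 26.88% shared, the lowest share for that mark among the members marked in both. Upstream of the gene the KO library had a region of 248 bp, against regions of 605 and 1010 bp in the WT library. Within the gene alone H3K27ac was 3562 bp in KO livers, against 2289 bp in WT livers, a difference past 1.5-fold in the opposite direction to H3K4me2.

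Csf1r and Spi1 supply the growth factor receptor and the transcription factor on which macrophages depend. Both carried wide regions, with summed lengths within 1.5-fold between the genotypes when all called regions were counted. Csf1r, on chromosome 18, encodes the receptor for CSF1 and IL-34 and had 5013 bp of H3K4me2 in KO livers, against 5020 bp in WT livers, with 57.01% shared. Its main H3K4me2 region measured 4414 bp in KO livers, against 3605 bp in WT livers, and lay within the first 6 kb from the lower-coordinate gene end. H3K27ac at Csf1r covered 5970 bp in KO livers, against 6895 bp in WT livers. The main H3K27ac region was 4979 bp in KO livers, against 4144 bp in WT livers, with 1 smaller piece beside it in KO livers and 4 in WT livers. The fold enrichment of that region was 3.71 in the KO list and 4.81 in the WT list. The gene Hmgxb3 begins 137 bp beyond the higher-coordinate end of Csf1r, and no region was called there in either genotype.

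Spi1 lies on chromosome 2, from 91082374 to 91115759, and encodes PU.1, an ETS factor that opens macrophage enhancers. It was the most extensively marked of the 10 in bases. H3K4me2 covered 16589 bp in KO livers (38.24% of the window), against 15549 bp in WT livers (35.84%). H3K27ac covered 18509 bp in KO livers (42.66%), against 18351 bp in WT livers (42.3%), and 76.5% of it was shared. A single H3K27ac region at the lower-coordinate gene end measured 11685 bp in KO livers, against 10707 bp in WT livers, the top 1.31% and 1.25% of each list by width. H3K4me2 at that end was 1 region of 7914 bp in KO livers, whereas the WT library had 4413 and 2245 bp with a gap between them. At the far end of the gene a narrow H3K4me2 region was among the strongest of either list, 638 bp with a fold of 11.99 in KO livers and 915 bp with a fold of 9.725 in WT livers. These ranked 1535 of 73042 by −log10 q-value in the KO list and 1095 of 66832 in the WT list. The gene Mybpc3 lies 2354 bp beyond that end of Spi1. With the bases near neighbouring genes left out, H3K4me2 at Spi1 was unchanged at 16589 bp in KO livers and 15549 bp in WT livers. Another H3K27ac region near 26 to 29 kb was 1378 bp in KO livers with a −log10 q-value of 3.661, against 2669 bp in WT livers with 14.55. With only regions of 5 or more, H3K27ac at Spi1 covered 3200 bp in KO livers, against 13376 bp in WT livers, a difference of -10176 bp. The wide region also fell on either side of that threshold, at 4.266 in KO livers and 5.123 in WT livers. A region of 3200 bp in KO livers, 13992 to 17191 bp from the lower-coordinate gene end, went the other way. It stood at 5.361, against 4.832 for the WT region of 3326 bp there.

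Adgre1, Aif1 and Cd68 are general macrophage markers. Adgre1 encodes F4/80, an adhesion G protein-coupled receptor, on chromosome 17 from 57358581 to 57483529. Its marks lay within 6 kb of the lower-coordinate gene end, with the rest of this long gene free of both. H3K4me2 covered 1393 bp in KO livers, against 2677 bp in WT livers, a ratio of 0.5204, and 11.94% was shared. The KO region of 1224 bp began 659 bp inside the gene end, whereas the WT region of 1474 bp crossed it. H3K27ac at the same place was a single region in each genotype, 1885 bp in KO livers and 1796 bp in WT livers, with 92.02% shared, the highest share for that mark.

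Aif1 encodes Iba1, an actin-bundling protein of activated macrophages and microglia, on chromosome 17 from 35170986 to 35176083. H3K4me2 covered 2159 bp in KO livers, against 2669 bp in WT livers. H3K27ac covered 2349 bp in KO livers, against 2172 bp in WT livers. The H3K27ac region over the gene was 2217 bp with a −log10 q-value of 5.146 in KO livers, against 2096 bp with 2.315 in WT livers. Counting only regions of 5 or more, this region was called in KO livers alone, and the H3K27ac difference became 2273 bp. A strong region of both marks at the edge of the Aif1 window belongs mostly to sequence outside it.

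Cd68 encodes a glycoprotein of lysosomes and late endosomes, on chromosome 11 from 69664213 to 69666170. Most of its window was covered, but the window also holds parts of Mpdu1, 1563 bp away, and Eif4a1, 765 bp away. H3K4me2 covered 7121 bp in KO livers, against 7325 bp in WT livers, and 93.78% was shared, the highest of the 10. H3K27ac covered 6481 bp in KO livers, against 8385 bp in WT livers. The KO H3K27ac region of 5177 bp began at 117 bp from the Cd68 start site, whereas the WT region of 5659 bp began at -750 bp and a further WT piece of 1066 bp lay upstream. With regions under 1000 bp apart joined, H3K27ac at Cd68 was 6481 bp in KO livers, against 9909 bp in WT livers, which passed 1.5-fold. With the bases near other protein-coding genes left out, the difference was 0 bp.

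Near the start sites the marks of these genes differed in opposite directions, a pattern that was noticed after the values had been seen. Of the 7 genes with a start site, 5 carried H3K27ac within 1000 bp of it, and at each of these 5 it was shorter in KO livers. H3K4me2 was found there at 3 genes and was longer in KO livers at each. At Vsig4 H3K27ac covered 837 bp in KO livers, against 1536 bp in WT livers. Cd68 had 884 bp in KO livers, against 1751 bp in WT livers. Eif4a1 lies 765 bp from Cd68, and the Cd68 window difference was 0 bp with the bases near other protein-coding genes left out. Clec4f and Cd5l had 1303 and 819 bp in KO livers, against 1639 and 1153 bp in WT livers. Timd4 had 682 bp in KO livers, against 1384 bp in WT livers, the lowest KO value of the 5. Marco and Aif1 had 0 bp in both genotypes. Summed over the 7 genes, H3K27ac was 4525 bp in KO livers, against 7463 bp in WT livers.

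For H3K4me2 near the start site, Clec4f had 808 bp and Timd4 776 bp in KO livers, against 0 bp in WT livers at both. Cd68 had 681 bp in KO livers, against 551 bp in WT livers, and the other 4 genes had 0 bp in both genotypes. The KO H3K4me2 regions at the Clec4f and Timd4 start sites were weak, with −log10 q-values under 2, and those of Clec4f lay on either side of the start site without reaching it. The region near the Cd68 start site was strong, with a −log10 q-value of 12.6 in KO livers and 11.94 in WT livers. That region also spanned the start site of Mpdu1, so its strength is not that of Cd68 alone. It stopped 320 bp short of the Cd68 start site in KO livers and 450 bp short in WT livers. Of all 21238 start sites, H3K27ac was shorter in KO livers at 19.1% and longer at 26.8%, and H3K4me2 was shorter at 19.1% and longer at 28.6%. Of the 7045 start sites with H3K27ac in both genotypes and a mean of at most 1800 bp, which leaves out those covered almost end to end, 40.2% were shorter in KO livers and 59.6% longer. The like shares for H3K4me2 over 6989 start sites were 40.1% and 59.7%. Of the members only Cd68 had H3K4me2 there in both genotypes, so Clec4f and Timd4 are outside that set of start sites. The direction of H3K27ac at the 5 members was thus the less common one, and that of H3K4me2 the more common one. With only regions of a −log10 q-value of 5 or more, H3K27ac was shorter in KO livers at 1 gene and H3K4me2 longer at 1.

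**Figure D3:**
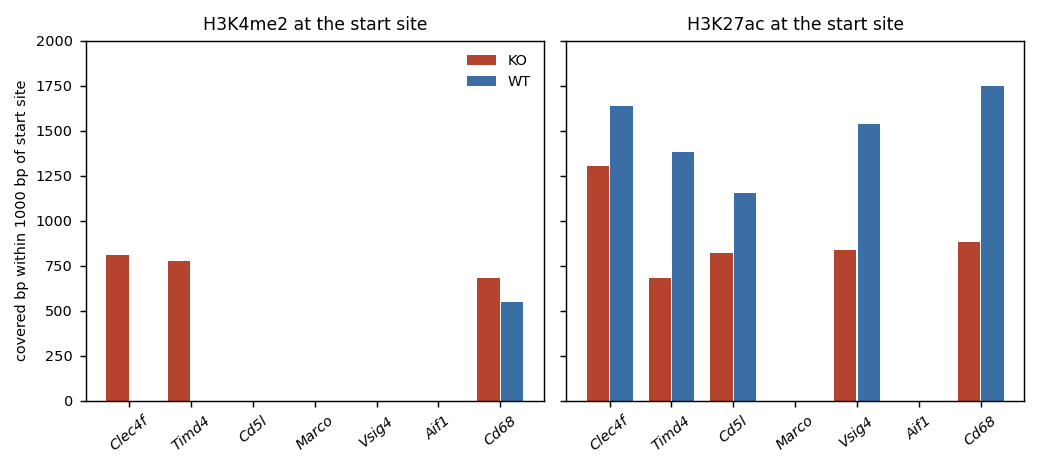
Length in bp covered by H3K4me2 (left) and H3K27ac (right) within 1000 bp either side of the start site of 7 genes, with KO and WT bars side by side and 1 library behind each bar. For H3K27ac each of the 5 marked genes has a KO bar below its WT bar, and for H3K4me2 each of the 3 marked genes has a KO bar above its WT bar or a KO bar alone.

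Counts for other genes were mixed. Of 12 other Kupffer cell identity genes with a single start site, H3K27ac near the start site was shorter in KO livers at 5 and longer at 2, with sums of 18133 bp in KO livers and 16923 bp in WT livers. Of 20 pan-macrophage and myeloid genes, it was shorter at 4 and longer at 10. H3K4me2 was longer in KO livers at 3 and shorter at 3 of the 12, and longer at 7 and shorter at 11 of the 20. Opposite directions also appeared outside macrophage genes. Of 10 stellate cell and fibroblast genes, H3K4me2 was longer in KO livers at 7 and shorter at 0, and H3K27ac was shorter at 5 and longer at 2, with H3K27ac sums of 7984 bp in KO livers and 11166 bp in WT livers. Of 9 liver endothelial genes, H3K4me2 was longer in KO livers at all 9, and H3K27ac was shorter at 3 and longer at 3.

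Most of the 10 genes carried more H3K27ac than H3K4me2, with limited overlap between the marks. In KO livers 8 members had more H3K27ac than H3K4me2 in bases, against 7 members in WT livers. Among all genes with either mark, 27.6% of 17001 had more H3K27ac in KO livers and 35.3% of 16823 in WT livers. Some other lists had the same excess in summed length. Over the other Kupffer cell identity genes H3K27ac summed to 215711 bp in KO livers, against 181344 bp of H3K4me2. In WT livers those sums were 225092 and 157322 bp. Pan-macrophage, endothelial and hepatocyte sums were also longer for H3K27ac in both genotypes. Lymphocyte and cholangiocyte sums were shorter in both, and monocyte and stellate cell sums differed by genotype. The share of a gene's H3K27ac bases that also carried H3K4me2 had a median of 41.41% over 10 members in KO livers, against 45.86% over 9 members in WT livers. Over all genes with H3K27ac the medians were 83.52% in KO livers and 79.01% in WT livers. The share was lowest at Vsig4, with 11.24% in KO livers and 0% in WT livers, and at Timd4, with 12.92% in KO livers and 0% in WT livers. Cd68 had 94.35% in KO livers and 73.88% in WT livers, and Spi1 had 72.46% in KO livers and 66.56% in WT livers.

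H3K4me2 regions at these genes were weaker than those of the whole lists, while H3K27ac regions in KO livers were close to their list. The median −log10 q-value of their H3K4me2 regions was 2.037 in KO livers and 2.444 in WT livers, against 2.896 and 3.308 over the whole KO and WT lists. For H3K27ac it was 2.453 in KO livers and 2.309 in WT livers, against 2.496 and 2.8. The median fold of the H3K27ac regions was 3.508 in KO livers and 3.394 in WT livers, against 3.503 and 3.655 over the lists. Of 33 H3K4me2 regions in KO windows 15 had a −log10 q-value under 2 (45.45%), against 10 of 28 in WT windows (35.71%), and over the whole lists 29.79% in KO livers and 24.4% in WT livers. The H3K27ac counts were 12 of 33 in KO windows (36.36%), against 13 of 33 in WT windows (39.39%), with 36.98% of the KO list and 29.32% of the WT list. With a −log10 q-value of 5 or more there were 4 H3K4me2 and 5 H3K27ac regions in either genotype, all in the windows of Aif1, Cd68 and Spi1. The other 7 genes had no region of that strength in any library. Some of these strong regions reached beyond the marker gene. The one of H3K4me2 at Aif1 had 280 of its 4651 bp inside the window in KO livers. Every Cd68 region of that strength overlapped Mpdu1 or Eif4a1. These q-values depend on sequencing depth, which the lists do not give, so a difference in depth and a difference in chromatin cannot be told apart.

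**Figure D4:**
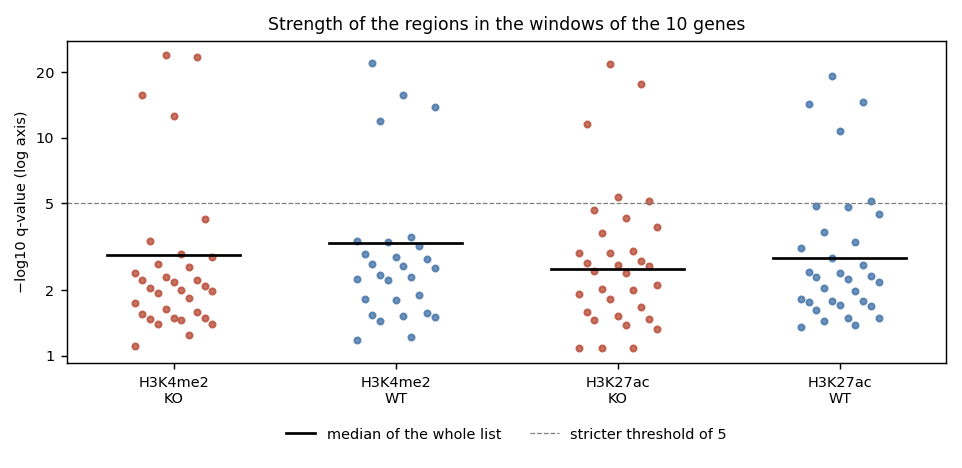
The −log10 q-value given by the authors (log axis) of every region that overlaps the windows of the 10 genes, 1 point per region, for each mark with KO left of WT. Black bars are medians over the whole list of each library and the dashed line is the stricter threshold of 5, above which 4 or 5 points lie in each column.

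E2f4, a cell cycle factor that represses its targets with RB-family proteins, had a peak in the window of 1 member, Cd68. A peak was listed in KO replicate 2, with a fold of 10.54 and rank 300 of 683, and none in KO replicate 1. Both WT replicates held it, with folds of 11.65 and 13.25 and ranks of 392 of 1791 and 346 of 1058. Its summit lay 1442 bp from Cd68 in KO livers and 1459 bp in WT livers, and it was far nearer to the start site of Mpdu1, at 122 bp in KO livers and 105 bp in both WT replicates. Over all genes a peak fell in the window of 1.57% in KO replicate 1, 4.2% in KO replicate 2, 9.34% in WT replicate 1 and 6.25% in WT replicate 2. The 0 or 1 of 10 members per library was near these shares.

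Other macrophage genes also differed in both directions. Of 20 other Kupffer cell identity genes, H3K4me2 was longer in KO livers at 14 and shorter at 5, with a sum at 115.3% of WT, beside 61.9% and 38% of marked genes in general. H3K27ac was shorter at 11 and longer at 9, with a sum at 95.83% of WT. Both sums include Cdh5, also an endothelial gene, which had the largest difference of this list in each mark. Its KO minus WT difference was 8919 bp for H3K4me2 and -7844 bp for H3K27ac. Siglec1, a sialic acid-binding receptor of resident macrophages, had 4034 bp of H3K4me2 in KO livers, against 481 bp in WT livers. Spic, a factor of red pulp and iron-handling macrophages, had 2163 bp of H3K27ac in KO livers, against 233 bp in WT livers. Hpgd, which degrades prostaglandins, had 17880 bp of H3K27ac in KO livers, against 13294 bp in WT livers, and Abca1, a cholesterol exporter, had 56008 bp in KO livers, against 60985 bp in WT livers. Irf7, an interferon response factor, had 3279 bp of H3K4me2 in KO livers, against 3437 bp in WT livers. These genes were thus on both sides of WT within each mark.

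Of 30 pan-macrophage and myeloid genes, H3K4me2 was longer in KO livers at 20 and shorter at 10, with a sum at 105.4% of WT. H3K27ac was longer at 21 and shorter at 8, with a sum at 102.4%. Mertk, an engulfment receptor, had 26336 bp of H3K4me2 and 51399 bp of H3K27ac in KO livers, against 19275 and 46329 bp in WT livers. Axl, its relative, had 15596 bp of H3K4me2 in KO livers, against 11852 bp in WT livers. Runx1, a blood cell factor, was shorter in KO livers in both marks, with 14604 bp of H3K4me2 and 7335 bp of H3K27ac in KO livers, against 19234 and 12327 bp in WT livers. Fcgr3, an Fc receptor, had 2462 bp of H3K4me2 in KO livers, against 5754 bp in WT livers. For H3K27ac, Csf2rb, a cytokine receptor subunit, had 4494 bp in KO livers, against 9445 bp in WT livers, and Mpeg1, a pore-forming protein of macrophages, had 10089 bp in KO livers, against 6686 bp in WT livers.

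Some lists of other cells stood farther from WT than the 10 genes. For lymphocyte genes, H3K4me2 was shorter in KO livers at 11 of 16 and the sum was at 36.92% of WT, with Ptprc, the pan-leukocyte phosphatase, at 5656 bp in KO livers against 17815 bp in WT livers. H3K27ac at the same list stood on the other side, shorter in KO livers at 4 and longer at 6 with a sum at 119.4% of WT, and Ptprc had 8086 bp of it in KO livers, against 5466 bp in WT livers. For 16 monocyte and neutrophil genes the sums were at 76.59% of WT for H3K4me2 and 118.4% for H3K27ac. Liver endothelial genes were at 140.7% of WT for H3K4me2, longer in KO livers at 14 of 15, and at 74.13% for H3K27ac, shorter at 13 of 15. Cdh5, a junction gene of endothelium that is also in the Kupffer cell list, had 17541 bp of H3K4me2 and 11169 bp of H3K27ac in KO livers, against 8622 and 19013 bp in WT livers. Stellate cell and fibroblast genes were at 167.3% for H3K4me2 and 74.31% for H3K27ac, cholangiocyte genes at 112.4% and 135.3%, and hepatocyte genes at 100.1% and 108.4%. Whether the cell makeup of the samples has a part in the values at the 10 genes was not tested.

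**Figure D5:**
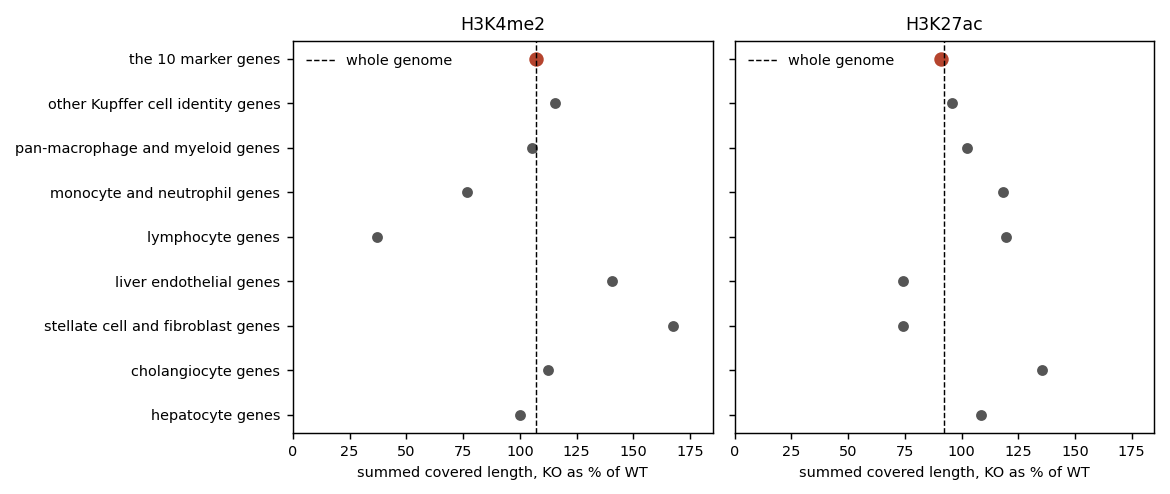
Summed covered length of each gene list in KO as a percentage of WT, for H3K4me2 (left) and H3K27ac (right), 1 point per list and 1 library per genotype. The dashed line is the genome-wide percentage (107.3 and 92.12), on which the 10 marker genes, in red, lie within a few points, whereas lymphocyte, endothelial and stellate cell genes lie away from it.

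Among other genes with windows under 100000 bp, 5 were taken whose profile lay nearest to the median of the 10, as the percentage of the window covered in the 4 histone libraries (11.33% and 14.43% for H3K4me2 in KO and WT livers, 15.99% and 15.7% for H3K27ac). These were Xrcc1, Rgs1, Rpl37rt, Sfi1 and Ndufaf6, at Euclidean distances of 0.974 to 1.94 percentage points. Rgs1, a regulator of G protein signalling in leukocytes, had 15.41% of its window under H3K27ac in both genotypes.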

How the data were processed

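The 16 samples, 8 immunoprecipitations and 8 inputs, were grouped by their titles, and only the 8 peak lists were used. The submitters' processing notes name build mm10 and, without roles, MACS2 2.0.10.20131216, HOMER, Picard and Bowtie2 2.2.3. How inputs entered the peak calls was not given in the sources used. The authors' lists, 1 per library, give broad regions for the marks and narrow peaks with summit offsets for E2f4. Each deposited region has a fold enrichment (a ratio over background), a −log10 p-value and a −log10 q-value from the authors, and a deposited score that was not used. These describe or filter regions within a list. The lists used hold no counts, so depth is unknown.

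Overlapping regions of a library were merged and their bases counted in each gene's window (Python 3.11.15, numpy 2.4.6, figures with matplotlib 3.10.9). Functions were tested on simulated data. Gene ends and upstream sequences came from RefSeq tables for GRCm38.p6, whose coordinates are those of mm10. Exons and introns were not analysed here. The design gave 1 library per genotype and mark, so no test was run. The share of marked genes follows the planned comparison, and the shares over lightly marked genes, start sites and windows with a mark or with more H3K27ac were added after the data had been seen.

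The members, the 8 other gene lists (146 entries with the members, all matched) and the naming rule were chosen with earlier results of these data known. The rule named all members, up to 2 genes per direction and mark of each list, neighbours in a window, and the 5 nearest profiles, and of its list genes most of those of macrophages and a few others are printed, and 1 is not reported here. Alternatives were windows of 2000 and 10000 bp and the gene alone, regions with a −log10 q-value of 5 or more, lists of equal length, regions of at least 500 bp, regions under 1000 bp apart joined, neighbouring genes left out, and, added later, KO lengths scaled to the WT genome-wide length.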

Additional observations from a re-analysis of the deposited data

How the results depend on the processing

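The median difference over the 10 genes (KO minus WT, -52.5 bp for H3K4me2 and 22 bp for H3K27ac) had no stable sign. For H3K4me2 it was 61.5 bp with 2000 bp windows, 342.5 bp with 10000 bp, 65.5 bp for the gene alone, 0 bp with a −log10 q-value of 5 or more, -151 bp for regions of at least 500 bp, 275.5 bp with regions joined, 61.5 bp with neighbouring genes left out and -246 bp after scaling. For H3K27ac it was, in the same order, -366, -178.5, -74.5, 0, -161.5, -257, 44.5 and 253 bp, and 133 bp with lists of equal length. The cause was not tested, except that a −log10 q-value of 5 leaves 7 of the genes without a region.

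At that threshold H3K4me2 was shorter in KO at 3 members and longer at 0, with 0 past 1.5-fold in either direction, and H3K27ac was shorter at 2 and longer at 1. The H3K27ac call at Vsig4 was lost, leaving 0 members 1.5-fold shorter, with 10000 bp windows and with lists of equal length. With regions joined it was also lost and Cd68 was called shorter in its place, so the count stayed at 1. H3K27ac calls longer in KO were 2 for the gene alone and 0 for regions of at least 500 bp. With regions of at least 500 bp 3 members were longer in H3K27ac, and after scaling 3 were shorter. H3K4me2 near the start site was longer in KO at 5 members within 2000 bp and at 1 at the stricter threshold, where H3K27ac was shorter at 1. Within 2000 bp neither mark kept a single direction. H3K4me2 at Aif1 was then shorter in KO, with regions from 1312 bp in WT livers and 2322 bp in KO livers. H3K27ac was shorter at 5 but longer in KO at Marco, with a KO region alone from 1208 bp. It was also longer at Aif1, from 1677 bp in KO livers and 2190 bp in WT livers. Of 90 values for single members and 9 settings, 67 kept direction and side of 1.5-fold for H3K4me2 and 64 for H3K27ac. The 1 member with an E2f4 peak in any library, Cd68, stayed 1 in all settings run. Its peak was listed in both WT replicates and in KO replicate 2, so leaving out any 1 library could not change that count. No paired analysis was possible because the marks had 1 library per genotype and no test was run.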
